A study of Homo sapiens with 6 samples.

Results

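The deposited gene table lists 84 protein-coding histone genes among 26391 rows, and their messenger RNA levels were compared between HEK293T cells given LOC550643 siRNA and cells given non-silencing siRNA. The 84 were chosen by symbol alone: 70 whose symbols start with HIST1H, HIST2H or HIST3H or are HIST4H4 (called clustered here), and 14 whose symbols start with H2AF or H3F3 or are H1F0 or H1FX (called non-clustered). Another 4 rows with such symbols are listed as non-coding and were left out. HEK293T is an immortal line derived from human embryonic kidney and expresses the large T antigen of SV40. At 50% confluency the cells received a pool of 4 siRNAs against LOC550643, or a human non-targeting siRNA, with the same transfection reagent, and RNA was taken 48 hours later. Each group held 3 libraries, numbered 1 to 3 in what follows, and the non-silencing libraries are called controls. There was 1 pool, 1 control siRNA and 1 cell line, so effects of the silencing and other effects of either siRNA cannot be told apart. LOC550643 encodes a polypeptide that binds EDC4, a scaffold of the mRNA decapping machinery, and the comparison asks whether steady-state RNA levels differ once it is silenced.

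Histones are the proteins around which DNA is wound: H2A, H2B, H3 and H4 form the core of the nucleosome and H1 binds the DNA that links nucleosomes. The clustered genes are replication-dependent. They are transcribed mainly in S phase, when new DNA has to be packed, and most of their messenger RNAs end not in a poly-A tail but just after a short stem-loop, which is bound by the protein SLBP and cut with the help of the U7 small nuclear ribonucleoprotein. The non-clustered genes encode variants such as H2A.Z, macroH2A, H3.3 and H1.0, which are made throughout the cell cycle from ordinary polyadenylated messages. Libraries prepared from RNA caught on poly-T beads, as here, therefore see the variants well and most messages of the clustered genes only where some copies carry a poly-A tail.

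The stem-loop is the feature by which the 2 classes differ in their messages, so the sites of the members on which the results turn are shown first, 5′ to 3′ on the gene's strand. Each run holds 26 bases of GRCh37 (the build also called hg19), and the capitals mark the 6-base arms of the stem, which enclose a loop of 4 bases.
HIST1H2BK, chr6:27114140-27114165, minus strand: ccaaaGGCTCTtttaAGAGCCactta
HIST1H2BD, chr6:26158810-26158835, plus strand: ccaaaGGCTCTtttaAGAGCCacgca
HIST2H2BE, chr1:149857733-149857758, minus strand: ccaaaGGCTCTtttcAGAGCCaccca
HIST1H1C, chr6:26055967-26055992, minus strand: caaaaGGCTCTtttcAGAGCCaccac
HIST3H2A, chr1:228645065-228645090, minus strand: ataaaGGCTCTtttcAGAGCCaccta
HIST1H3B, chr6:26031820-26031845, minus strand: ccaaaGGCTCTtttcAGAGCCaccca
HIST2H2AC, chr1:149858936-149858961, plus strand: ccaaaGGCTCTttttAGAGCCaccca
HIST1H4E, chr6:26205224-26205249, plus strand: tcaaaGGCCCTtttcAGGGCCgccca
H2AFX, chr11:118965603-118965628, minus strand: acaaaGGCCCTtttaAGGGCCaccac

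The 300 bases after each stop codon were searched on the gene's own strand for the 16-base consensus of the histone 3′ stem-loop, with at most 1 mismatch and all 6 stem pairs formed (G with T counted as a pair). All 70 clustered genes held it with 0 mismatches, 5 of them in the deposited gene span because no coding model was found for them. Of the 14 non-clustered genes only H2AFX held it, and 13 had no match in that window. Among 19363 other protein-coding genes 7 had a match, or 0.0362%. A match is a description of the letters and says nothing of whether the site is used.

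The 71 sites held 11 distinct 16-base sequences. The most common, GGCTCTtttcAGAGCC, stood in 40 members, among them HIST1H1C, HIST2H2BE, HIST3H2A and HIST1H3B above. The first arm separated the families: all 15 clustered H4 genes had GGCCCT there and 0 of the 55 other clustered genes did. Of those 55, 54 had GGCTCT, and HIST1H2AK alone had GGTTCTtttcAGAGCC. H2AFX, a variant H2A gene, had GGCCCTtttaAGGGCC, with the same first arm as the H4 genes. In the 65 clustered genes with a coding model, 22 to 67 bases, with a median of 35, lay between the stop codon and the stem-loop.

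The libraries held 32309964, 33421162 and 36082404 read pairs in the controls and 35249993, 30739321 and 8604236 in the LOC550643 siRNA group, as inferred from the values, so LOC550643 siRNA library 3 was the shallowest. A count of 0 allows up to 3 read pairs, or 0.0831 to 0.349 CPM depending on the library. CPM here are deposited values relative to the library's TMM-scaled total. These limits alone are relative to the total before TMM scaling, and they cover counting error only. The targeted gene, listed as LINC01420, stood at 56.2, 50.7 and 51.8 CPM in the controls and at 5.85, 5.96 and 5.41 CPM in the LOC550643 siRNA libraries, a log2 fold change of -3.20. Markers seen in this cell line were present, with the sum of 7 (PAX2, LHX1, EYA1, CDH2, VIM, NEFL, NEFM) between 1019 and 1220 CPM in all libraries. Of 6 blood cell markers the sum was 1.49 to 3.10 CPM, with HBB and HBG1 at 0, and of 5 hepatocyte markers it was at most 0.846 CPM, with FGA and SERPINA1 at 0. The sum of 6 epithelial markers was 30.2 to 32.9 CPM, mostly KRT10 and with KRT1 at 0, and that of 6 fibroblast markers was 68.0 to 78.1 CPM, mostly COL1A1.

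Histone reads in these libraries were nearly all from the non-clustered genes. The 14 together gave 2128, 1913 and 2066 CPM in the controls, and the 70 clustered genes together 40.2, 42.5 and 35.6 CPM. The clustered share of histone reads was 1.85%, 2.17% and 1.69% in the controls and 1.95%, 2.13% and 2.06% in the LOC550643 siRNA libraries. The shares of the groups overlapped.

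Of the 70 clustered genes, 56 had at least 1 read end in some library and 14 had none in any. Only 16 passed the filter on low values, a minimum of 10 read pairs by edgeR's rule, and the other 40 with reads had a mean between 0.00448 and 0.236 CPM. By family, the filter kept 7 of 18 H2B, 4 of 17 H2A, 2 of 6 H1, 2 of 14 H3 and 1 of 15 H4 genes. The HIST1H genes, between 25726291 and 27861669 on chromosome 6, gave 13 of the 16 from 55 genes, with 12 at 0. The HIST2H genes on chromosome 1 gave 1 from 11, with 2 at 0, and the HIST3H genes on chromosome 1 gave 2 from 3. HIST4H4 on chromosome 12 had reads but did not pass. Of the non-clustered genes, 11 of 14 passed, and H2AFB1, H2AFB2 and H2AFB3, which encode short H2A variants known from testis, were at 0.

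A few clustered genes made up most of the clustered reads. HIST1H2BK gave 31.0% of the summed CPM of the class over the 6 libraries and HIST1H1C 23.6%. With HIST2H2BE, HIST3H2A and HIST1H2BD, 5 genes gave 75.9%.

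Per kilobase of the deposited transcript model, the highest control levels were those of variants. H2AFZ, one of 2 genes for H2A.Z, stood at 409 ± 48.2 CPM per kilobase (SD, n = 3, as for all errors below), H1FX, a linker histone, at 259 ± 2.72, and H3F3B, which encodes H3.3, at 142 ± 12.3. H1F0, the gene of linker histone H1.0, followed at 135 ± 7.58 and overlapped H3F3B. H2AFY, for macroH2A1, stood at 101 ± 5.13, H2AFX at 77.9 ± 4.30, H2AFY2, for macroH2A2, at 42.2 ± 3.02 and H2AFV, the other H2A.Z gene, at 32.4 ± 1.97. From H2AFY to H2AFV no neighbours overlapped. The lowest were H3F3A at 3.39 ± 0.168 and H3F3C at 2.93 ± 0.668, which overlapped, and H2AFJ at 1.77 ± 0.163. The deposited model of H2AFJ is 3664 bases long, while its GENCODE model is much shorter, with 546 overlapping windows of 75 bases. The place of H2AFJ in this order therefore depends on the model used.

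Clustered genes reached lower levels on the same scale. HIST1H2BK stood at 13.8 ± 0.106 CPM per kilobase and HIST1H1C at 12.5 ± 1.55, with overlapping libraries, and HIST3H2A at 6.94 ± 0.502. The other 13 clustered genes tested ran from 2.19 ± 0.364 for HIST1H2BN to 0.523 ± 0.0871 for HIST1H2AC. Within this lower range neighbours in the order overlapped, except HIST1H2BO, whose libraries at 0.618 to 0.641 lay above those of HIST1H2AC. The deposited models of HIST1H2BK and HIST1H2BD are 835 and 809 bases long. Their GENCODE models used here are shorter, with 421 and 412 overlapping windows of 75 bases. The places of these genes in the order therefore also depend on the model used.

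**Figure D1:**
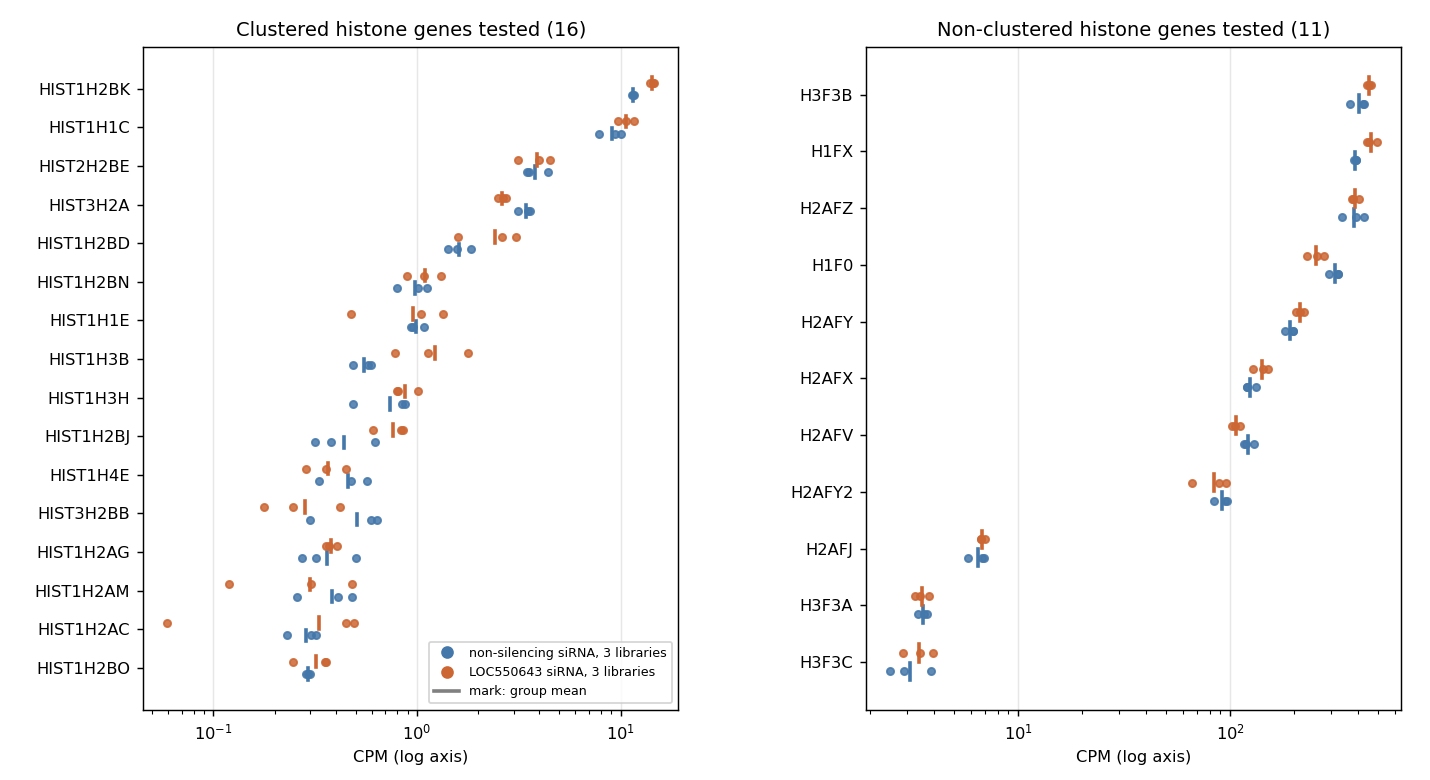
Level of the 27 histone genes tested in each of the 6 libraries, in CPM on a log axis (not divided by length), with points for libraries and short marks for group means; blue is non-silencing siRNA and orange LOC550643 siRNA. The clustered genes lie below 15 CPM and 8 of the 11 non-clustered genes above 60 CPM, and the orange points spread most among the lowest clustered genes.

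The transcript models of the clustered genes differed in where they end. In 60 clustered genes the end of the deposited model could be set beside the stem-loop, and in 56 of them it lay 1 to 11 bases past it. In the other 4 it lay further: 12746 genomic bases past in HIST1H2BD, 8073 in HIST1H2BK, 1728 in HIST2H2BE and 51 in HIST1H2AE. HIST1H2BK, HIST2H2BE and HIST1H2BD are also among the 5 clustered genes with the most reads. In H2AFX, known for messages of both kinds, the deposited model ended 1023 bases past the stem-loop.

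With the annotated transcripts of GENCODE included, 14 clustered genes had some end more than 50 bases past the stem-loop: 9 H2B, 3 H2A and 2 H3 genes, and no H1 or H4 gene. Of these 14, 9 passed the filter on low values (64.3%), against 7 of the other 56 (12.5%). Their median control level was 1.03 CPM per kilobase, against 0.0992 in the others. The others include the 5 genes without a coding model, whose ends were not set beside a stem-loop and which did not pass the filter. The classes were not separate: HIST1H1C, second in level, has no model ending more than 4 bases past its stem-loop, and HIST1H2BE, with an annotated end 430 bases past, was at 0 in all 6 libraries. These are descriptions across genes that share libraries, without a test.

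**Figure D2:**
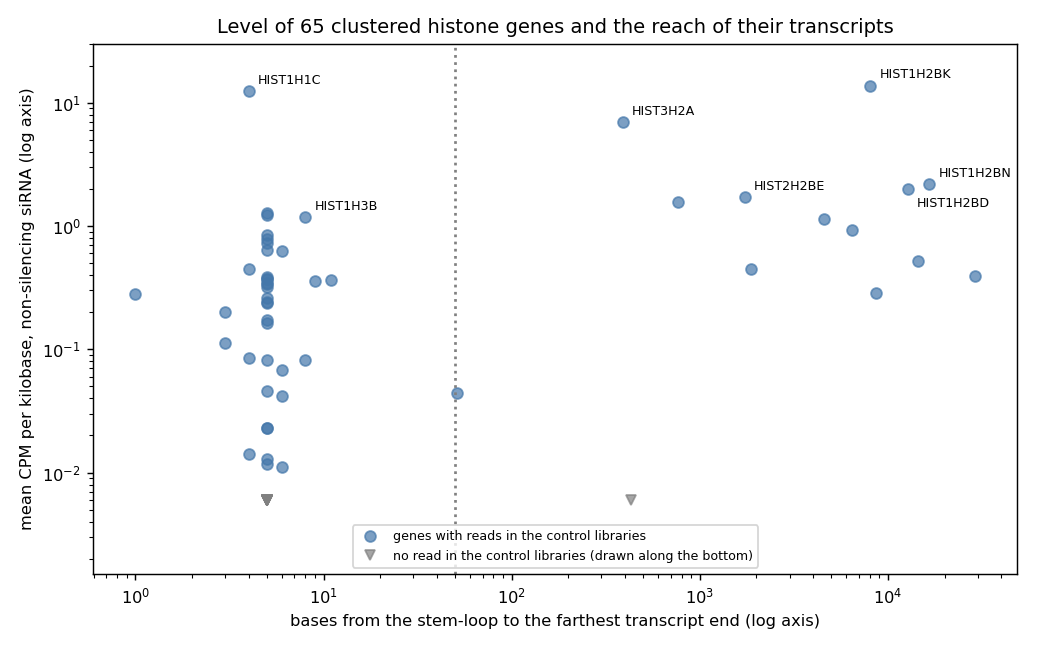
Mean control level in CPM per kilobase (log axis) of the 65 clustered genes with a coding model, against the bases from the stem-loop to their farthest deposited or annotated transcript end (log axis). The dotted line marks 50 bases; genes to its right lie mostly above 0.2 CPM per kilobase, and triangles along the bottom are genes without a read in the controls.

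Some histone genes share sequence with each other or with pseudogenes, which the authors' counting could split or drop. In 15 of 79 members with a counted model, at least 50% of the 75-base windows occur more than once in GRCh37. Of those 15, H3F3A was the only gene tested, with 89.9% of its windows repeated, against 5.09% in H3F3B and 8.46% in H3F3C. The pseudogene row H3F3AP4 lies on the H3F3A locus and has nearly the same values, so the low level of H3F3A is uncertain. Of the 14 clustered genes at 0, 10 had no repeated window and 2 had only repeated ones. In HIST1H2BK 39.0% of windows are repeated, and its span overlaps HIST1H4I on the opposite strand by 370 bases.

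After LOC550643 siRNA 4 histone genes were called. HIST1H2BK and HIST1H3B, clustered genes for H2B and H3, rose, as did the linker histone gene H1FX, and the linker histone gene H1F0 fell. These 4 were 2 of 16 clustered genes tested (12.5%) and 2 of 11 non-clustered genes tested (18.2%), where 35.7% of the 16245 genes tested in the whole table were called at a limma adjusted p under 0.05 (17.5% higher, 18.2% lower). Most clustered genes tested rest on few read pairs, so a gene not called there is not shown to be unchanged. Libraries of the groups did not overlap in 3 of the 16 clustered genes (2 higher, 1 lower) and 5 of the 11 non-clustered genes (3 higher, 2 lower), against 48.5% of all genes tested (23.7% higher, 24.9% lower). Across all rows, 2837 genes were higher and 2956 lower with TMM scaling, and 2081 and 3976 with library totals alone. Median log2 fold changes were 0.09 for the clustered genes tested and 0.07 for the non-clustered, beside -0.02 for all genes tested. Fold changes are LOC550643 siRNA over control on the log2(value + 1 deposited unit) scale. The added unit draws changes of low genes toward 0, but these values are not lower bounds. HIST1H2AM stood at -0.44 with limma and -0.12 with edgeR, and HIST1H4E at -0.29 and -0.33. Nothing in the labels says that replicates came from separate cultures, so the p-values measure only how these samples vary, and that variation may be technical.

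**Figure D3:**
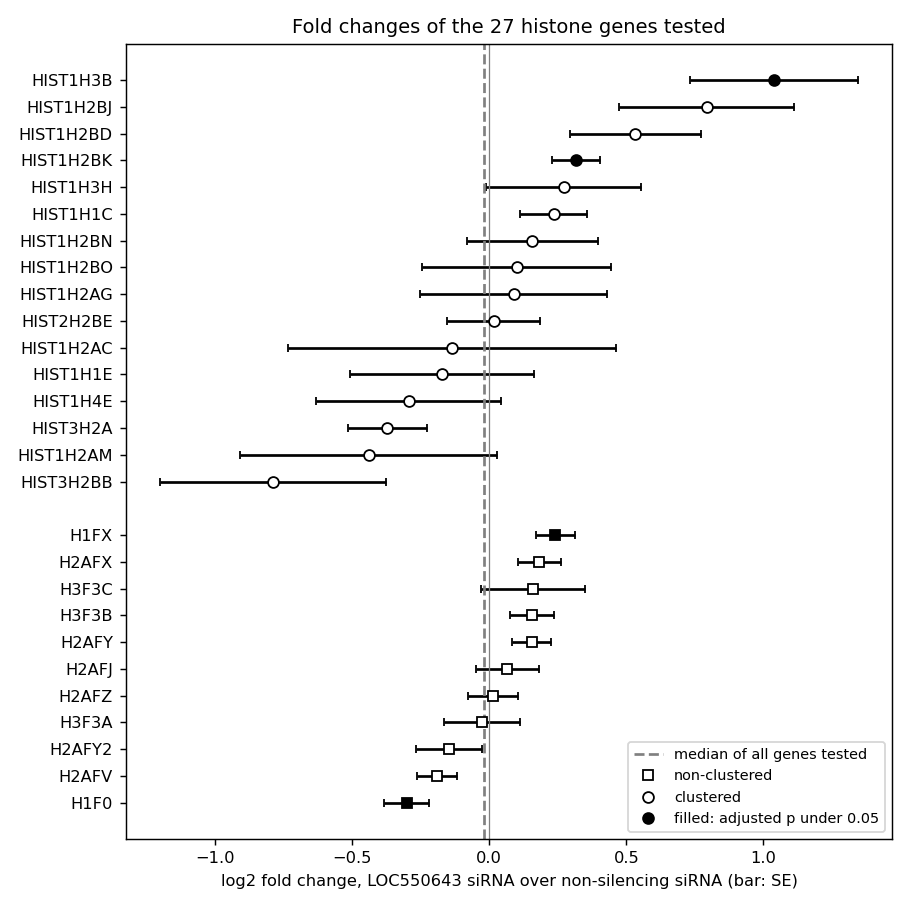
Log2 fold change of each histone gene tested, LOC550643 siRNA over control, with its SE; circles are clustered and squares non-clustered genes, filled where the limma adjusted p is under 0.05. The filled symbols are HIST1H3B at 1.04, HIST1H2BK at 0.32, H1FX at 0.24 and H1F0 at -0.30, and the dashed line is the median of all genes tested.

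Among the core histone H2B genes, HIST1H2BK (now H2BC12; NM_080593, chromosome 6, 27106072 to 27114637) stood at 11.6, 11.5 and 11.4 CPM in the controls and at 13.98, 14.4 and 14.6 CPM in the LOC550643 siRNA libraries. All 3 siRNA libraries lay above all 3 controls, and the controls were nearly level. The means were 11.5 ± 0.0887 and 14.3 ± 0.329 CPM, or 0.32 on the log2 scale (SE 0.087, limma adjusted p = 0.0155). The call was lost when all libraries were thinned to the shallowest (0.26, limma adjusted p = 0.139).

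HIST1H2BD (H2BC5) and HIST2H2BE (H2BC21), the other H2B genes whose deposited models run far past the stem-loop, did not pass. HIST1H2BD was at 1.84, 1.58 and 1.42 CPM in the controls and 1.59, 3.06 and 2.62 CPM after LOC550643 siRNA (log2 fold change 0.53, SE 0.24, limma adjusted p = 0.106). Its siRNA library 1 lay within the controls and the other two above them, and without that library the gene was called (0.81, limma adjusted p = 0.0147). HIST2H2BE stood at 3.55, 4.43 and 3.46 CPM against 3.96, 4.51 and 3.15 CPM (0.02, limma adjusted p = 0.952), with overlapping groups.

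Summed over all 18 H2B genes, the level was 19.7, 20.96 and 18.5 CPM in the controls and 22.3, 25.4 and 23.3 CPM after LOC550643 siRNA. The H2B sums did not overlap, while those of the clustered H1, H2A, H3 and H4 genes did, under each of the 4 scalings. HIST1H2BK makes up over 50% of each H2B sum.

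In the linker family, HIST1H1C (H1.2; chromosome 6, 26055968 to 26056699) stood at 9.39, 10.0 and 7.84 CPM in the controls and 9.71, 11.7 and 10.6 CPM after LOC550643 siRNA. The groups overlapped, since siRNA library 1 lay below control library 2, and the log2 fold change of 0.24 (SE 0.12) had a limma adjusted p of 0.154. HIST1H1E (H1.4) was at 0.936, 1.09 and 0.961 CPM against 1.04, 1.35 and 0.476 CPM (log2 fold change -0.17, SE 0.34, limma adjusted p = 0.722). The lowest of these, in siRNA library 3, rests on 4 read pairs, and without that library the value was 0.25.

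Among clustered H2A genes, HIST3H2A (H2AC25; chromosome 1, 228645065 to 228645560) was at 3.61, 3.51 and 3.14 CPM in the controls and 2.74, 2.66 and 2.50 CPM after LOC550643 siRNA. Every siRNA library lay below every control. It did not pass at -0.37 on the log2 scale (SE 0.14), with a limma adjusted p of 0.065, though it did with library totals alone (-0.45, limma adjusted p = 0.03). HIST1H2AG stood at 0.272, 0.319 and 0.501 CPM against 0.406, 0.370 and 0.357 CPM (0.09, limma adjusted p = 0.864), and HIST1H2AM at 0.408, 0.479 and 0.257 CPM against 0.478, 0.303 and 0.119 CPM (-0.44, limma adjusted p = 0.496). Both genes overlapped between groups, and siRNA library 3 of HIST1H2AM held 1 read pair.

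The largest fold change among the histone genes tested was that of HIST1H3B (H3C2; NM_003537, chromosome 6, 26031817 to 26032288), one of the clustered genes for H3.1. Its level was 0.574, 0.595 and 0.487 CPM in the controls and 0.782, 1.13 and 1.78 CPM after LOC550643 siRNA. All siRNA libraries lay above the controls, and they differed among themselves more than the controls did. These values rest on 19, 20.5 and 18 read pairs in the controls and 27, 33.5 and 15 in the siRNA libraries. This is a log2 fold change of 1.04 with SE 0.31 and a limma adjusted p of 0.0209. Without control library 1 or 3, or siRNA library 2 or 3, the limma adjusted p was 0.0547, 0.0651, 0.0578 and 0.0622, and without siRNA library 3 the log2 fold change was 0.74.

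Other clustered H3 and H4 genes gave little to compare. HIST1H3H stood at 0.876, 0.842 and 0.487 CPM in the controls and 0.797, 0.808 and 1.01 CPM after LOC550643 siRNA (log2 fold change 0.27, SE 0.28, limma adjusted p = 0.483). HIST1H4E, the only H4 gene tested, was at 0.332, 0.566 and 0.474 CPM against 0.449, 0.286 and 0.357 CPM (-0.29, SE 0.34, limma adjusted p = 0.528). In both the groups overlapped. The 5 clustered genes tested and not yet described also overlapped between groups and did not pass. Picked after their values were seen, HIST1H2BJ had the highest log2 fold change of these at 0.79 (limma adjusted p = 0.0735) and HIST3H2BB the lowest at -0.79 (limma adjusted p = 0.159).

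HIST2H2AC, also picked after its values were seen, is a clustered H2A gene (H2AC20) that the authors' deposited table lists at a log2 fold change of -1.39 with an adjusted p of 0.0134. It did not pass the filter on low values here. Its level was 0.513, 0.319 and 0.271 CPM in the controls and 0.203, 0.101 and 0 CPM in the LOC550643 siRNA libraries, from 17, 11 and 10 read pairs against 7, 3 and 0. The siRNA libraries lay below the controls, but the 0 in the shallowest library allows up to 0.349 CPM before TMM scaling. With no filter the gene was called at -1.92 (limma adjusted p = 0.0445), with that 0 included. Without siRNA library 1 it was called at -2.52 (limma adjusted p = 0.0203). There it passed the filter only through controls, the group where it is high, so that call is not independent of the filter. The authors' deposited table also has adjusted p-values under 0.05 for HIST1H3B (0.96), HIST1H2BK (0.31), H1F0 (-0.30) and H1FX (0.24), with log2 fold changes in parentheses, and for no other histone gene of the 84.

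The 2 non-clustered linker histone genes moved in opposite directions. H1F0 (NM_005318, chromosome 22, 38201114 to 38203443) encodes H1.0, the linker histone known to build up in cells that stop dividing, and stood at 324, 293 and 323 CPM in the controls and 258, 276 and 231 CPM after LOC550643 siRNA. H1FX (NM_006026, chromosome 3, 129033614 to 129035120) was at 392, 392 and 385 CPM in the controls and 449, 492 and 441 CPM after LOC550643 siRNA. In both genes the groups did not overlap, with every H1F0 siRNA library below and every H1FX siRNA library above the controls.

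H1F0 fell by 0.30 on the log2 scale, with SE 0.082 and a limma adjusted p of 0.0143, from 313 ± 17.6 to 255 ± 22.3 CPM. H1FX rose by 0.24 (SE 0.072, limma adjusted p = 0.0222), from 390 ± 4.10 to 461 ± 27.8 CPM. Both calls depended on single libraries. That of H1F0 was lost without control library 1 or siRNA library 3 (limma adjusted p = 0.0543 and 0.0662), and that of H1FX without control library 1 or 3 or siRNA library 2 (0.0566, 0.0607 and 0.105) and with library totals alone (0.0757). The ratio of H1FX to H1F0 per kilobase, formed after both values were seen, was 1.87, 2.07 and 1.84 in the controls and 2.70, 2.77 and 2.95 after LOC550643 siRNA. The ratio needs no scaling between libraries. H1FX overlaps its antisense neighbour H1FX-AS1 by 7 bases.

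None of the 6 H2A variants tested passed with limma, edgeR or DESeq2, and with limma 2 had an unadjusted p under 0.05 in the higher and 1 in the lower direction. H2AFZ stood at 425, 336 and 393 CPM in the controls and 405, 379.8 and 374 CPM after LOC550643 siRNA (log2 fold change 0.01, SE 0.09, limma adjusted p = 0.927), and H2AFV at 118, 129.9 and 116 CPM against 106, 101 and 112 CPM (-0.19, SE 0.072, limma adjusted p = 0.0591). These genes encode the closely alike H2A.Z proteins, which mark promoters. The H2AFZ groups overlapped, and H2AFZ was below 0 with library totals alone (-0.06) and with upper-quartile scaling (-0.02). All H2AFV siRNA libraries lay below the controls, and H2AFV was called with library totals alone (-0.27, limma adjusted p = 0.0148) and with upper-quartile scaling (-0.22, limma adjusted p = 0.0321).

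MacroH2A variants carry a large extra domain and are known from silent chromatin. H2AFY was at 199, 181 and 197 CPM in the controls and 223, 214 and 204 CPM after LOC550643 siRNA (log2 fold change 0.16, SE 0.07, limma adjusted p = 0.108), and H2AFY2 at 96.1, 84.0 and 94.4 CPM against 95.9, 88.8 and 66.0 CPM (-0.15, SE 0.12, limma adjusted p = 0.372). H2AFY did not overlap between groups, while in H2AFY2 only siRNA library 3 lay below the controls, and without it the value was 0.02. H2AFY overlaps C5orf66 on the opposite strand by 10300 bases of its span. Without a strand option, reads in exons shared by both could not be told apart, and whether their exons overlap was not checked.

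H2AFX encodes H2A.X, the histone phosphorylated at DNA breaks, and alone among the non-clustered genes holds the stem-loop shown above. Its level was 132, 120.45 and 119.5 CPM in the controls and 143.5, 151 and 128 CPM after LOC550643 siRNA. The groups overlapped, because siRNA library 3 lay below control library 1. The gene did not pass at 0.18 on the log2 scale (SE 0.079, limma adjusted p = 0.0924), and was called at 0.25 without siRNA library 3 (limma adjusted p = 0.0403). H2AFJ, for H2A.J, stood at 6.76, 5.81 and 6.90 CPM against 6.65, 6.67 and 7.02 CPM (0.07, limma adjusted p = 0.691), with overlapping groups.

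H3.3, the H3 variant placed outside replication, is encoded by H3F3A and H3F3B. H3F3B stood at 429, 366 and 424 CPM in the controls and 451, 462 and 441 CPM after LOC550643 siRNA (log2 fold change 0.16, SE 0.08, limma adjusted p = 0.148), with no overlap between the groups. For H3F3A the values were 3.73, 3.38 and 3.61 CPM against 3.45, 3.82 and 3.27 CPM (-0.03, limma adjusted p = 0.902). H3F3C, which encodes a related H3, was at 3.87, 2.50 and 2.90 CPM against 3.97, 3.45 and 2.85 CPM (0.16, limma adjusted p = 0.546), and in H3F3A and H3F3C the groups overlapped.

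Summed levels of either class differed between groups by less than the range of the control libraries. The clustered sum was 40.2, 42.5 and 35.6 CPM in the controls and 42.7, 47.4 and 42.3 CPM after LOC550643 siRNA, a log2 ratio of the means of 0.16. The non-clustered sum was 2128, 1913 and 2066 CPM against 2146, 2179 and 2011 CPM, a log2 ratio of 0.05. With the same TMM scaling the sum over all genes had a log2 ratio of 0.08. In both classes the groups overlapped, except that with median-of-ratios scaling the clustered sums, at most 42.3 CPM in the controls and at least 42.5 CPM after LOC550643 siRNA, did not.

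Other RNAs made without a poly-A tail were set beside the clustered genes, as a description. How reads of either came through the poly-T selection was not tested. Of 28 such small RNAs listed, 16 were in the table, and their sum was 11.6, 12.5 and 9.07 CPM in the controls and 10.9, 11.9 and 15.04 CPM after LOC550643 siRNA. The highest sum was that of siRNA library 3, where SCARNA12 alone stood at 10.1 CPM. In the other libraries SCARNA12 was at 4.00, 4.67 and 3.55 CPM in the controls and 5.85 and 6.21 CPM after LOC550643 siRNA. Of 7 tested, 28.6% were called beside 35.7% of all genes tested: 1 was higher, SCARNA12 (log2 fold change 0.82, limma adjusted p = 0.00771), and 1 lower, RPPH1 (-1.46, limma adjusted p = 0.00215). Their part in the histone values was not tested.

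**Figure D4:**
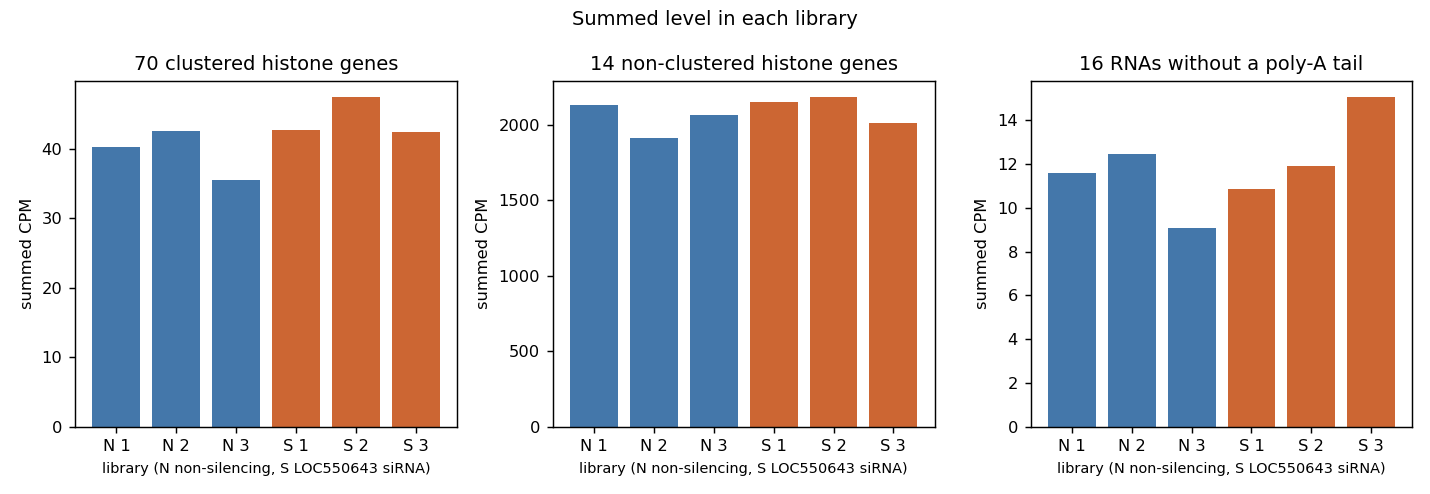
Summed CPM in each library of the 70 clustered histone genes, the 14 non-clustered histone genes and 16 RNAs made without a poly-A tail, each panel on its own axis from 0; N and blue are non-silencing siRNA, S and orange LOC550643 siRNA. The groups overlap in each panel, and the clustered sum stays between 35.6 and 47.4 CPM while the non-clustered sum stays between 1913 and 2179 CPM.

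Clustered histone genes are transcribed with S phase, so genes of that phase were read in the same libraries. Of 20 S phase markers 5 were higher and 2 lower, or 35.0% beside 35.7% of all genes tested, a share at the background. RRM2, a subunit of ribonucleotide reductase, rose by 0.74 on the log2 scale (limma adjusted p = 4.4e-05), MCM7, of the replicative helicase, one of 0.38 (limma adjusted p = 0.0029) and POLA1, of the priming polymerase, one of -0.35 (limma adjusted p = 0.00341). The summed markers were 3570, 3334 and 3673 CPM in the controls and 3852, 4026 and 3831 CPM after LOC550643 siRNA, without overlap, though with library totals alone they overlapped and 4 markers were higher and 4 lower. In bulk RNA, more cells in S phase and more of these RNAs per cell cannot be told apart, and the part of this difference in the histone values was not tested.

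Of 10 regulators of histone gene transcription, 2 were higher and 2 lower (0 and 2 with library totals alone), or 40% beside 35.7% of all genes tested, a share near the background. E2F1 and cyclin E1 (CCNE1) had log2 fold changes of 0.22 and 0.20 (limma adjusted p = 0.0205 and 0.0397), and cyclin E2 (CCNE2) and its kinase CDK2 of -0.42 and -0.27 (limma adjusted p = 0.0058 and 0.0117).

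Of 17 genes for the cutting of histone pre-mRNA, 6 were higher and 1 lower, or 41.2% beside 35.7% of all genes tested, again near the background. With library totals alone 4 were higher and 5 lower. SLBP, which binds the stem-loop, rose from 112 ± 6.39 to 138 ± 5.17 CPM, or 0.31 on the log2 scale (limma adjusted p = 0.00536). ZNF473, a zinc finger protein that works with the U7 ribonucleoprotein, had 0.38 (limma adjusted p = 0.00229), CPSF2, of the cleavage complex, 0.43 (limma adjusted p = 0.00255) and symplekin (SYMPK), its scaffold, 0.31 (limma adjusted p = 0.00693). SLBP is also among the S phase markers above.

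Of 12 genes for translation and decay of histone messages, 3 were higher and 2 lower (2 and 3 with library totals alone), or 41.7% beside 35.7% of all genes tested, a share near the background. CTIF, a factor of cap-bound translation, rose by 0.55 (limma adjusted p = 0.00015) and the helicase UPF1 by 0.40 (limma adjusted p = 0.000965), while MIF4GD, a partner of SLBP, had -0.36 (limma adjusted p = 0.00938) and ZCCHC6, which adds uridines to histone messages, -0.28 (limma adjusted p = 0.0449).

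Of 30 genes of histone chaperones and importers, 14 were higher and 4 lower, or 60.0% beside 35.7% of all genes tested, and 10 and 4 with library totals alone. IPO4, an importer of H3 and H4, rose from 82.7 ± 5.06 to 121 ± 7.36 CPM (log2 fold change 0.55, limma adjusted p = 0.000262) and RBBP7, a binder of H4, from 399.7 ± 41.4 to 607 ± 13.9 CPM (0.61, limma adjusted p = 3e-04). NASP, which holds soluble H3 and H4, rose by 0.41 (limma adjusted p = 0.0013), and DNAJC9, a heat shock co-chaperone of H3 and H4, fell by 0.40 on the log2 scale with a limma adjusted p of 0.00134. The summed level of these 30 genes was 6138, 6112 and 6502 CPM in the controls and 6931, 7008 and 6971 CPM after LOC550643 siRNA. These sums did not overlap, also with library totals alone. With TMM scaling the sum over all genes did not overlap either, at a log2 ratio of 0.08 beside 0.16 for these genes.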

How the data were processed

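Poly-A selected, dUTP-marked paired libraries with reads of 75 bases were aligned by STAR 2.4.0k to hg19 after CASAVA 1.8.2, per the labels' protocols. HOMER then counted exon reads for the authors, per the file headers, merging a gene's transcripts and without a strand option, and edgeR 3.6.8 compared the groups. The deposited per-library values are a signal scaled by the authors to nearly equal library totals, not raw counts. Where p-values and log2 changes come from the authors' deposited comparison, the text says so. Copies and lengths are other columns the authors deposited. In every library 100% of values below 2000 steps lie within 0.1 step of a whole multiple of 1 step, taken to be 1 read end; 2 ends were counted as 1 pair. Because the values are scaled and the counts behind them only inferred, the test was limma 3.58.1 (mean trend, two-sided). It was run on log2(value after TMM scaling + 1 deposited unit, 0.034 CPM). Benjamini-Hochberg adjustment was over the 16245 genes kept by edgeR's filter at a minimum of 10 pairs. On recovered pairs edgeR 4.0.16 called 2885 genes higher and 3019 lower, and DESeq2 1.42.0 called 2790 and 2596. Replicates differed beyond sampling noise, with chi-square per degree of freedom from 5.47 to 41.8. The largest values, 31.4 and 41.8, both involved control library 2, against 9.5 between control libraries 1 and 3. Gene models came from GENCODE 44 lifted to GRCh37.

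The members and gene lists were chosen with earlier results of these data known, and list counts are descriptions without a test of the list. Values in every library are given for each member called, for up to 3 clustered members tested per family with the highest mean CPM, and for each non-clustered member with a mean of at least 1 CPM; of the other lists, up to 4 called members with the smallest p are named. Alternatives were other scalings, filters, a pseudocount of 0.1, edgeR, DESeq2, a replicate block, thinning, each library left out and a threshold of 0.01. The scripts were tested on simulated data. R 4.3.3 and Python 3.11.15 were used.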

Additional observations from a re-analysis of the deposited data

How the results depend on the processing

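Most clustered genes tested rest on few read pairs, LOC550643 siRNA library 3 is far shallower than the rest, and read pairs are inferred from the values. Of the 22 histone genes named by rule, H2AFY, H3F3B, H3F3C and HIST1H1C kept direction and side of the threshold under all 18 alternatives tried for each, and HIST1H3H and HIST1H4E under all 16 that gave a value. Of the 4 genes called, HIST1H2BK lost its call when thinned, and HIST1H3B, H1F0 and H1FX lost theirs without single libraries, as given above. HIST1H3B gave no value with a mean of at least 1 CPM or thinned. The cause of these changes was not tested.

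At an adjusted p under 0.01, 1770 genes of all tested were higher and 1751 lower, and limma called 0 histone genes of either class. At 0.05 edgeR and DESeq2 called the 4 genes limma called and no other histone gene. With library totals alone 1 clustered gene was lower, 0 non-clustered genes were higher and 2 lower, the non-clustered median was -0.0093 and the log2 ratio of their summed level was -0.023, H2AFJ stood at -0.0093, H2AFZ at -0.063 and HIST2H2BE at -0.059. With upper-quartile scaling 2 non-clustered genes were lower, H2AFZ stood at -0.016 and HIST2H2BE at -0.013. With no filter 1 clustered gene was lower (HIST2H2AC) and the clustered median was -0.15. With a mean of at least 1 CPM 1 clustered gene was higher. Thinned to the shallowest library, 0 clustered genes were higher, their median was -0.053, H2AFJ stood at -0.29, H3F3A at 0.11 and HIST2H2BE at -0.053. HIST1H1E stood at 0.10 with edgeR, 0.048 with DESeq2 and 0.025 with edgeR and a replicate block, and H3F3A at 0.0021 with DESeq2.

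With 1 library left out in turn, clustered genes called higher ranged from 1 to 3 and lower from 0 to 1, non-clustered genes called higher from 0 to 2 and lower from 0 to 1, the clustered median from -0.038 to 0.16 and the non-clustered median from -0.023 to 0.11. Of the log2 fold changes that changed sign, H2AFJ ran from -0.023 to 0.11, H2AFY2 from -0.25 to 0.015, H2AFZ from -0.093 to 0.088, H3F3A from -0.088 to 0.024, HIST1H1E from -0.47 to 0.25, HIST1H2AG from -0.081 to 0.32, HIST1H2AM from -0.83 to 0.041 and HIST2H2BE from -0.10 to 0.16. The clustered gene called lower was HIST2H2AC, without LOC550643 siRNA library 1, with the limit given above. HIST1H2AK held 3.5, 5 and 7 read pairs in the controls and 14, 11.5 and 1 in the LOC550643 siRNA libraries. Without siRNA library 3 it was called (1.28, limma adjusted p = 0.0312). It passed the filter there only through the siRNA libraries, where it is high, so that call is not independent of the filter. HIST1H2BJ was called without control library 2 (1.05, limma adjusted p = 0.0339).

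The replicate numbers share no label beyond the number, and same-numbered libraries had correlations of 0.06, -0.28 and -0.12 in their deviations from the group means. With the replicate number as a block, limma called 2671 genes higher and 2718 lower, and of the histone genes 2 clustered genes higher, 0 clustered lower, 1 non-clustered higher and 1 non-clustered lower, the counts found without it.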
